A study of Homo sapiens with 6 samples.

Results

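The extracellular sulfatases SULF1 and SULF2 and 8 core proteins that carry heparan sulfate were followed in T47D cells after knockdown of CUEDC1. The 10 genes are SULF1 and SULF2, the syndecans SDC1, SDC2, SDC3 and SDC4, the glypicans GPC1, GPC4 and GPC6, and agrin (AGRN). They were taken by symbol from a table of 17758 genes, and all 10 were found and had enough reads to be tested. SULF2 was chosen by its lower level after knockdown in these same libraries, so its values are a description and no test is given for it. The other 9 were taken as members of the same families.

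T47D is an established oestrogen receptor-positive line from a human ductal carcinoma of the breast. Both groups stably carried a lentiviral short hairpin RNA. The control group (shNC, 3 libraries) had a non-targeting hairpin and the knockdown group (shCUEDC1, 3 libraries) had a hairpin against CUEDC1. How many hairpins were used is not stated, so effects of a hairpin other than on CUEDC1 cannot be told apart from the knockdown. The series calls the libraries biological replicates without saying whether they are separate infections, and p-values here reflect only how far these libraries scatter, which may be technical.

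Heparan sulfate is a long sulfated sugar chain made in the Golgi and attached to a few core proteins. Syndecans span the cell membrane, glypicans are held at its outer face by a lipid anchor, and agrin is secreted into the extracellular matrix. Growth factors such as FGFs, and many chemokines, bind to sulfated stretches of the chain. SULF1 and SULF2 act outside the cell and remove 6-O-sulfate groups from finished chains, which changes which ligands bind.

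Library totals lay between 18924327 and 19731609 estimated reads. CUEDC1 itself read 104 ± 9.34 CPM in the controls and 32.4 ± 1.25 CPM after knockdown (SD, n = 3 each). CPM are counts scaled to a common library size. Library shNC 3 stood apart from its own group. Among genes averaging 10 CPM or more, log2 differences between shNC 1 and shNC 2 had an SD of 0.110, but 0.253 and 0.273 between shNC 3 and this pair, against 0.236 to 0.254 between the pair and the knockdown libraries. Results below are therefore also given without shNC 3. All 10 luminal epithelial markers examined, ESR1, GATA3 and KRT19 among them, reached 1 FPKM in some library, with a summed level of 5850 to 7163 FPKM in the controls and 7065 to 7188 FPKM after knockdown. FPKM is scaled to gene length as well as to depth. The 5 endothelial markers were all below 1 FPKM in every library. Of 5 leukocyte markers 4 were below 1 FPKM throughout, with sums of 2.86 to 3.34 FPKM in the controls and 3.43 to 3.85 FPKM after knockdown, mostly CD68. Of 4 adipocyte markers 3 were below 1 FPKM throughout, with sums of 0.75 to 1.74 and 0.74 to 0.96 FPKM. In bulk RNA, fewer cells that express a gene and less RNA per cell cannot be told apart.

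The promoters of 3 members are shown: SULF2, which was lower after knockdown, GPC6, which rose, and SDC4, the most abundant, which was not called. Each line is the 250 bases before the gene's start in RefSeq (GRCh38, patch p14), read 5′ to 3′ on the gene's own strand. Capitals mark E-boxes (CANNTG) and a forkhead motif (TGTTTAC) in SULF2, which share a base at 1 site. They mark a TATA box (TATAAA) in GPC6 and GC boxes (GGGCGG) on either strand in SDC4. The windows are chr20:47786628-47786877 on the minus strand, chr13:93226557-93226806 on the plus strand and chr20:45348425-45348674 on the minus strand.
SULF2: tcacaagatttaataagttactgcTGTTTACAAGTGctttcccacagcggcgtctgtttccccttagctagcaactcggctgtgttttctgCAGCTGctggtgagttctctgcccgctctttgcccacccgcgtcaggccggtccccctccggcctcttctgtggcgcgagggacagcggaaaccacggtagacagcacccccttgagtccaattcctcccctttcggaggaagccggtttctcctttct
GPC6: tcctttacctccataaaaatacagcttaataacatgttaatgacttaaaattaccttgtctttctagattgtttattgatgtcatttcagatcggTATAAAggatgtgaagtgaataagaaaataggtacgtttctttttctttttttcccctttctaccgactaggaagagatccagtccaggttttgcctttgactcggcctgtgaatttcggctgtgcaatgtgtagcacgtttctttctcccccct
SDC4: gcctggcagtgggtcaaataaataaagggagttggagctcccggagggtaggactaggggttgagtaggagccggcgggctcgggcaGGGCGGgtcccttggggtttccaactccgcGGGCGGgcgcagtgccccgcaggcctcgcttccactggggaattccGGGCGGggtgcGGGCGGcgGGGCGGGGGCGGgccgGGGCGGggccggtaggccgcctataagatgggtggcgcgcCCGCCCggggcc

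RefSeq promoters were matched for 7 of the 10 members; SULF1, SDC2 and AGRN had no entry. Counting both strands and overlapping matches, SULF2 and GPC6 held 0 GC boxes, SDC4 held 8, and the other matched promoters held 1 (SDC1), 5 (SDC3), 4 (GPC1) and 2 (GPC4). The motif is in 42.6% of 35116 promoters of the same length. The G and C content was 37.6% for GPC6 and 56.8% for SULF2, and between 66.4% and 84.0% for the other 5, against a median of 58.0% over all promoters. The TATA box of GPC6 is a motif held by 10.7% of promoters, an E-box is in 61.8% and the forkhead motif in 3.0%. The AP-1 motif TGANTCA (6.6% of promoters), the cyclic AMP response element TGACGTCA (1.6%) and the full palindromic oestrogen response element (14 of the 35116) were in none of the 7. These are matches of letters only.

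Levels of the 10 genes spanned a wide range in the controls. On the FPKM scale SDC4, a syndecan found at focal adhesions, was the highest at 234 ± 11.4 FPKM (SD, n = 3, as for the levels that follow). Agrin followed at 40.01 ± 6.01 FPKM and SDC2 at 33.01 ± 5.41 FPKM, and the libraries of this pair overlapped. SDC1, the main syndecan of epithelia, was at 24.9 ± 1.78 FPKM, SULF1 at 11.6 ± 2.51 FPKM and GPC1 at 5.85 ± 0.742 FPKM. SDC3, GPC6 and GPC4 lay together at 2.76 ± 0.271, 2.69 ± 0.527 and 2.60 ± 0.379 FPKM, with overlapping libraries. SULF2 was the lowest at 1.26 ± 0.468 FPKM. After knockdown SDC2, at 60.3 ± 2.70 FPKM, lay above agrin at 39.3 ± 1.99 FPKM without overlap. GPC6, at 4.70 ± 0.199 FPKM, then lay above SDC3 at 2.64 ± 0.163 FPKM and GPC4 at 2.77 ± 0.256 FPKM.

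**Figure D1:**
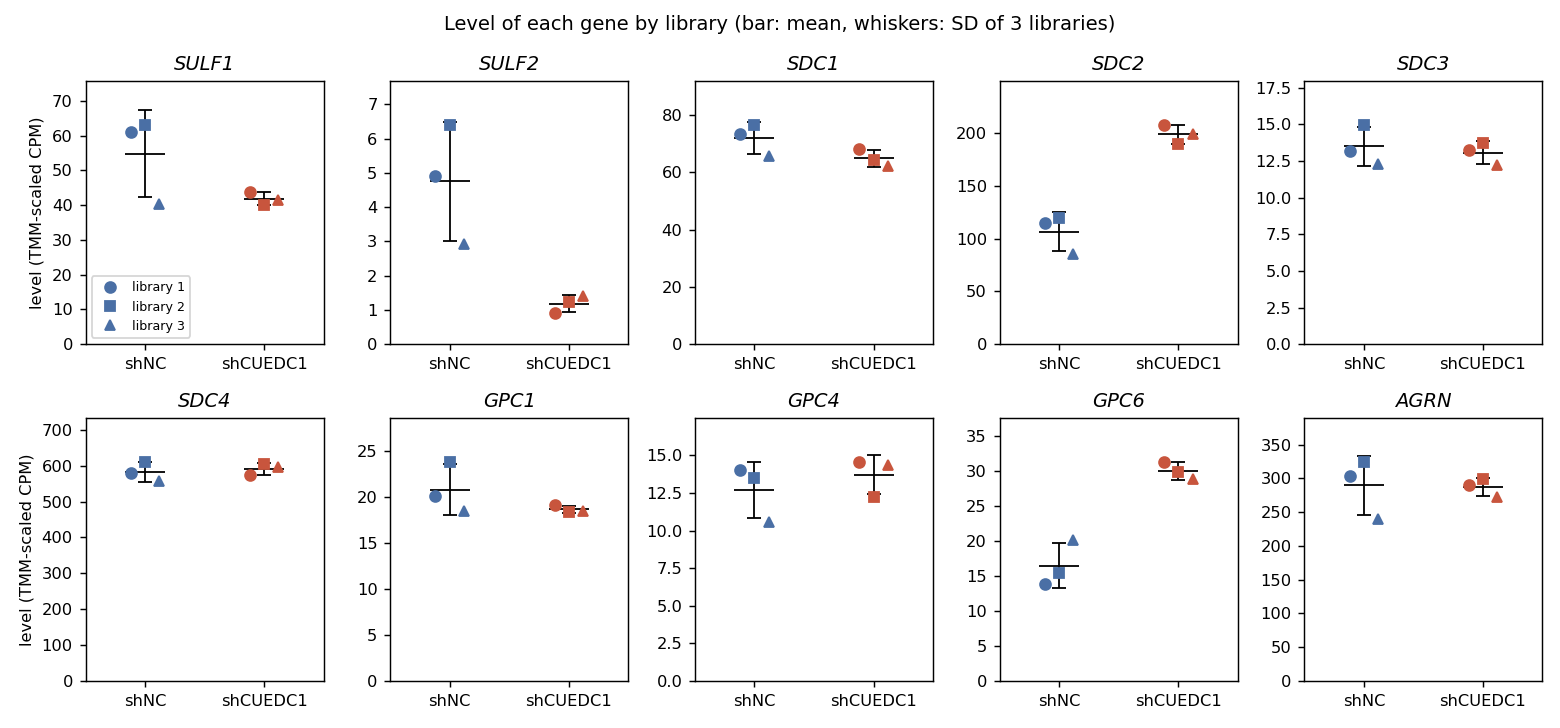
Level of each of the 10 genes in TMM-scaled CPM (vertical axes, each from 0) in the 3 shNC and 3 shCUEDC1 libraries; symbols are libraries, the long bar is the mean and the whiskers the SD. SULF2, SDC2 and GPC6 have groups that do not overlap, and shNC 3 (triangle) lies with the knockdown libraries for SULF1.

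Of the 9 members other than SULF2, only SDC2 and GPC6 had groups without overlap, beside 31.3% of all genes tested. The groups of SULF2 did not overlap either, but it was chosen by its fall and is not counted here. Among the sulfatases, SULF2 (Entrez 55959; chromosome 20, 47656348 to 47786616, minus strand; GRCh38, GENCODE release 29, as for the positions below) was the lowly expressed one. It read 4.91, 6.40 and 2.94 CPM in controls 1, 2 and 3 and 0.918, 1.23 and 1.40 CPM in knockdown libraries 1, 2 and 3. Every knockdown library was below every control, although shNC 3 was the lowest of the controls. SULF2 was thus 4.01-fold lower after knockdown, from 56 to 127 estimated reads per control library and 18 to 27 per knockdown library. The log2 difference was -2.25 without shNC 3. On log2(FPKM + 0.5), where the added constant is large beside so low a level, it was -1.08.

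SULF2 overlaps NCOA3, a nuclear receptor coactivator gene on the opposite strand, by 530 bases at its 3′ end. An antisense gene, AL354813.1, lies within SULF2 along 8397 bases and was not among the genes tested. Whether the counting used strand is not stated, so reads from these overlaps cannot be told apart. NCOA3 read 106 ± 5.75 CPM in the controls and 126 ± 1.53 CPM after knockdown, a log2 rise of 0.25 (SE 0.0529; adjusted p by edgeR 0.0171), opposite in sign to the SULF2 difference. The part of NCOA3 or AL354813.1 reads in the SULF2 counts was not tested.

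SULF1 (Entrez 23213; chromosome 8, 69466624 to 69660915, plus strand) was the more abundant sulfatase in every library. It read 61.003, 63.1 and 40.4 CPM in controls 1, 2 and 3 and 43.8, 40.1 and 41.5 CPM in knockdown libraries 1, 2 and 3. shNC 3 lay among the knockdown libraries and the other controls lay above all of them. With all libraries the log2 difference was -0.39 (95% interval -0.75 to -0.03; adjusted p by edgeR 0.162) and was not called by edgeR, while DESeq2 called it (adjusted p 0.0481). Without shNC 3 it was -0.57 (95% interval -0.68 to -0.45, adjusted p by edgeR 2.24e-09). Whether SULF1 was called thus depended on shNC 3 and on the method. Added together on the FPKM scale, the sulfatases came to 14.2, 14.9 and 9.47 FPKM in controls 1, 2 and 3 and 9.11, 8.65 and 9.08 FPKM in knockdown libraries 1, 2 and 3. The share of SULF2 in that sum was 9.61% ± 1.67 in the controls and 3.51% ± 0.686 after knockdown (SD, n = 3 each).

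Of the 9 members other than SULF2, 2 rose and 0 fell by edgeR's quasi-likelihood test. Calls were made at a Benjamini-Hochberg adjusted p below 0.05 over the 13824 genes tested. An unadjusted p by edgeR below 0.05 was found for 3 of the 9. The share of all genes at that unadjusted level was not counted. Such counts, here and for the lists below, therefore cannot be read as an excess. By adjusted p, 9.96% of all genes were called in the same fit, 5.19% higher and 4.77% lower. The median log2 difference of the 9 was -0.01, and that of all genes tested -0.004. Both rises were in core proteins, 1 syndecan and 1 glypican.

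SDC2 (Entrez 6383; chromosome 8, 96493351 to 96611780, plus strand), the syndecan known from fibroblasts and other mesenchymal cells, rose. It read 115, 120.01 and 85.6 CPM in controls 1, 2 and 3 and 208, 189.6 and 199 CPM in knockdown libraries 1, 2 and 3. All knockdown libraries were above all controls, and shNC 3 was the control farthest from them. This was a 1.86-fold rise, 0.90 on the log2 scale (95% interval 0.63 to 1.16; adjusted p by edgeR 0.00274). It was called with each library left out in turn, at log2 values of 0.76 (without shNC 3) to 0.99.

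The other syndecans were not called with all libraries. SDC4 (Entrez 6385; chromosome 20, 45325288 to 45348424, minus strand) read 578, 611 and 556 CPM in controls 1, 2 and 3 and 574, 606 and 595 CPM in knockdown libraries 1, 2 and 3. Its log2 difference was 0.02 (95% interval -0.09 to 0.13; adjusted p by edgeR 0.819), an interval that ends at a 1.10-fold rise. SDC1 (Entrez 6382; chromosome 2, 20200797 to 20225433, minus strand) read 73.4, 76.5 and 65.8 CPM in controls 1, 2 and 3 and 68.1, 64.3 and 62.2 CPM in knockdown libraries 1, 2 and 3, differing by -0.15 (95% interval -0.30 to 0.005; adjusted p by edgeR 0.212). SDC3 (Entrez 9672; chromosome 1, 30869467 to 30908761, minus strand), the syndecan best known from neurons, read 12.3 to 14.97 CPM in the controls and 12.2 to 13.8 CPM after knockdown, differing by -0.05 (95% interval -0.28 to 0.18; adjusted p by edgeR 0.831). The groups overlapped for SDC1, SDC3 and SDC4.

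The mix of syndecan RNA is given next as shares of summed syndecan FPKM, without a test. SDC2 made up 11.97%, 11.8% and 9.74% in controls 1, 2 and 3 and 19.97%, 17.9% and 18.9% in knockdown libraries 1, 2 and 3, with no overlap. The share of SDC4 was 79.5% ± 1.35 in the controls and 73.3% ± 1.32 after knockdown (SD, n = 3 each), and that of SDC1 was 8.44% ± 0.103 and 6.91% ± 0.347. The summed level was 294 ± 18.4 FPKM and 319 ± 3.51 FPKM. SDC4 was the main syndecan transcript in each of the 6 libraries.

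GPC6 (Entrez 10082; chromosome 13, 93226842 to 94407401, plus strand), a glypican whose gene spans 1180560 bases, rose as well. It read 13.9, 15.4 and 20.1 CPM in controls 1, 2 and 3 and 31.4, 29.8 and 28.9 CPM in knockdown libraries 1, 2 and 3. The groups did not overlap, and shNC 3 was the control nearest to the knockdown. This was a 1.82-fold rise, 0.86 on the log2 scale (95% interval 0.59 to 1.14; adjusted p by edgeR 0.00272). It was called with each library left out, at log2 values of 0.76 to 1.04, the highest without shNC 3. Antisense genes, GPC6-AS1 and GPC6-AS2 among them, lie within it, and without known use of strand their reads cannot be told apart.

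For scale, with 1 library left out the share of all genes called was 4.93% without shNC 1, 7.26% without shNC 2, 28.1% without shNC 3, and 3.66%, 3.34% and 3.71% without shCUEDC1 1, 2 and 3. SDC2 and GPC6 were called in each of these and in all 7 other fits, where the share was 10% with RLE size factors, 7.97% with no low-count filter, 10.5% with a filter at 1 CPM, 10.8% by DESeq2, 9.84% by limma-voom, 8.26% by limma-trend on FPKM and 8.08% with the replicate number as a block.

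GPC1 (Entrez 2817; chromosome 2, 240435671 to 240468078, plus strand) read 20.05, 23.8 and 18.5 CPM in controls 1, 2 and 3 and 18.4 to 19.1 CPM after knockdown, differing by -0.16 (95% interval -0.38 to 0.07; adjusted p by edgeR 0.372). GPC4 (Entrez 2239; chromosome X, 133300103 to 133415490, minus strand), of the same glypican subfamily as GPC1 and GPC6, read 10.6 to 14.02 CPM in the controls and 12.2 to 14.6 CPM after knockdown, differing by 0.11 (95% interval -0.17 to 0.39; adjusted p by edgeR 0.647). Both glypicans had overlapping groups. In the summed FPKM of GPC1, GPC4 and GPC6, the share of GPC6 was 24.3% ± 5.63 in the controls and 37.2% ± 1.46 after knockdown (SD, n = 3 each). That of GPC1 was 52.4% ± 3.52 and 40.9% ± 0.297. The sum leaves out the glypicans GPC2, GPC3 and GPC5, each below 1 FPKM in every library. GPC3 was at 0.630 and 0.337 FPKM without overlap, differing by -0.80, and was not called (adjusted p by edgeR 0.163). GPC2 differed by 0.40 (adjusted p by edgeR 0.680), and GPC5 had too few reads to be tested.

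**Figure D2:**
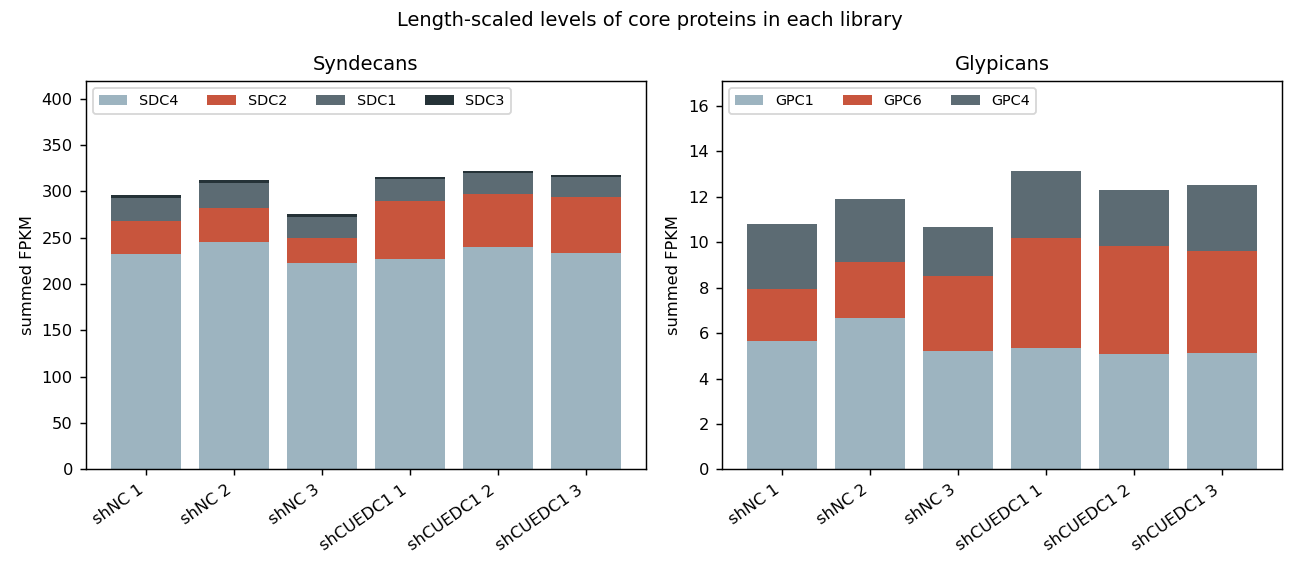
Summed FPKM (vertical axes, from 0) of the 4 syndecans (left) and 3 glypicans (right) in each of the 6 libraries, stacked by gene. The SDC2 and GPC6 segments are larger in each knockdown library than in any control, while SDC4 makes up most of the syndecan sum throughout.

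Agrin (AGRN, Entrez 375790; chromosome 1, 1020123 to 1056118, plus strand), a large core protein of basement membranes and of the nerve-muscle synapse, read 303, 325 and 240.5 CPM in controls 1, 2 and 3 and 291, 299 and 273 CPM in knockdown libraries 1, 2 and 3. The knockdown libraries lay within the range of the controls. Its log2 difference was -0.01 (95% interval -0.24 to 0.22; adjusted p by edgeR 0.965).

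Leaving out shNC 3 took the number of called members from 2 to 6 of 9, with 2 rises and 4 falls. The falls were SULF1, SDC1 (-0.20, adjusted p by edgeR 0.00275), GPC1 (-0.23, 0.0416) and AGRN (-0.12, 0.0277). In that fit 28.1% of all genes were called, 14.3% higher and 13.8% lower. SDC3, SDC4 and GPC4, at log2 differences of -0.10, -0.0045 and -0.0013, were not called there either.

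**Figure D3:**
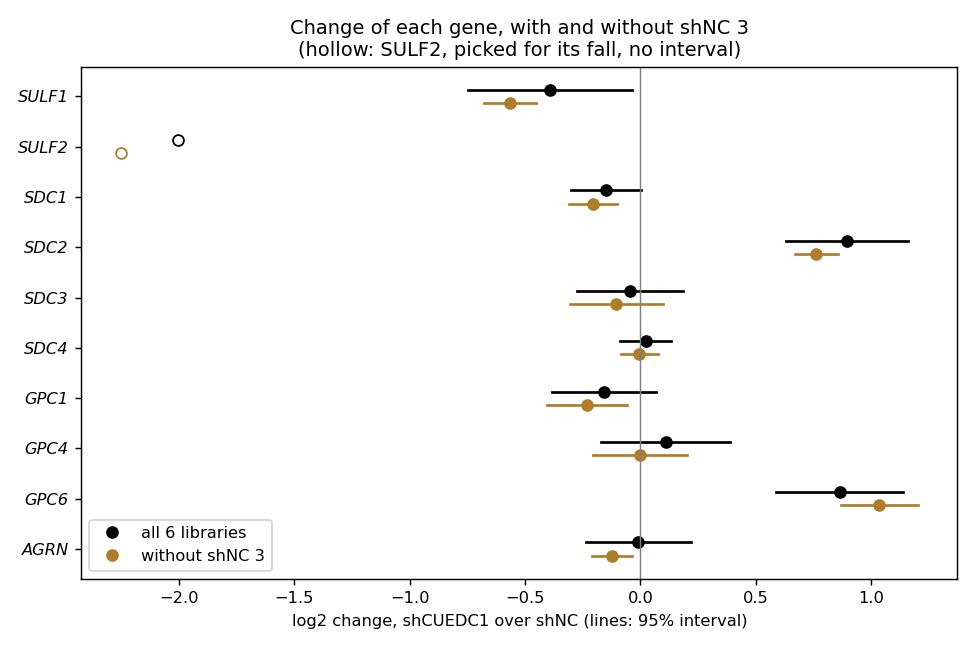
Log2 change of each gene, shCUEDC1 over shNC (horizontal axis), from the fit with all 6 libraries (black) and without shNC 3 (brown); lines are 95% intervals and hollow points mark SULF2, for which none is given. SDC2 and GPC6 lie above 0 in both fits, and the intervals of SULF1, SDC1, GPC1 and AGRN are narrower and below 0 without shNC 3.

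Fibroblasts make several of these core proteins, so their markers are given beside the rises of SDC2 and GPC6. The summed level of 6 fibroblast markers was 5.91 to 7.07 FPKM in the controls and 9.64 to 10.8 FPKM after knockdown, without overlap. COL1A1, a collagen chain, made up most of it and rose by 0.61 (adjusted p by edgeR 0.00843). LUM, a matrix proteoglycan core protein, had a larger log2 difference of 1.29 that was not called (adjusted p by edgeR 0.0744): it read 1.47, 1.14 and 0.360 FPKM in controls 1, 2 and 3 and 2.90, 2.14 and 2.17 FPKM in knockdown libraries 1, 2 and 3, without overlap. COL1A2, COL3A1, DCN and PDGFRB were below 1 FPKM in every library, and none of the 6 was at 0 in all libraries. COL1A2, COL3A1 and DCN differed by 0.25, -0.02 and 0.12 and were not called (adjusted p by edgeR 0.680, 0.987 and 0.868). PDGFRB had too few reads to be tested, at 0.152 CPM in the controls and 0.085 CPM after knockdown. Of 6 basal and myoepithelial markers, KRT5 and KRT14 were below 1 FPKM throughout, while KRT17, ACTA2, TP63 and MYLK were above 1 FPKM in every library. The latter averaged 12.5, 17.1, 2.99 and 1.26 FPKM in the controls and 9.17, 14.4, 2.42 and 1.36 FPKM after knockdown. None of them was called, and KRT17, ACTA2 and TP63 were lowest in shNC 3. The summed level of the 6 was 21.9 to 40.5 FPKM in the controls and 26.6 to 28.7 FPKM after knockdown. The part of other cell types in the rises was not tested.

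Genes that build, modify and use heparan sulfate were examined in 10 companion lists with 133 entries, of which 99 were tested. Of these, 4 rose and 11 fell, or 15.2%, beside the 9.96% of all genes. Their median log2 difference was -0.08, against -0.004 over all genes. Without shNC 3, 14 of 100 rose and 26 fell, beside the 28.1% of all genes, 14.3% higher and 13.8% lower. These shares of all genes are the background for each count without shNC 3 in the lists below.

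Of the 12 genes that build the linker and the chain, 1 rose and 3 fell (median -0.07). EXT1, which with EXT2 forms the polymerase of the chain, read 84.2 ± 3.86 CPM in the controls and 56.6 ± 1.35 CPM after knockdown (SD, n = 3 each) and fell by 0.57 on the log2 scale (SE 0.0563; adjusted p by edgeR 3.86e-04). EXT2 fell by 0.20 and FAM20B, the kinase that phosphorylates the linker's xylose, by 0.24. XYLT2, a xylosyltransferase that starts the linker, rose by 0.39 (SE 0.0678; adjusted p by edgeR 0.00661). The calls of EXT2 and FAM20B were lost with 5 and 4 of the 6 single libraries left out, with highest adjusted p by edgeR of 0.164 and 0.143, and XYLT2 had 0.0508 without shCUEDC1 2. With the replicate block EXT2 and FAM20B were at adjusted p by edgeR 0.0622 and 0.0658. Without shNC 3, 1 rose and 4 fell of 12 (median -0.13).

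Of 9 tested epimerase and sulfotransferase genes, 1 rose and 1 fell (median -0.10). NDST4, of the family that replaces acetyl by sulfate groups along the chain, read 0.203, 0.403 and 0.944 CPM in controls 1, 2 and 3 and 3.82, 3.17 and 2.38 CPM in knockdown libraries 1, 2 and 3. All knockdown libraries were higher, at a level that stayed low: 4 to 18 estimated reads per control library and 45.9 to 75.1 per knockdown library. NDST4 rose by 2.59 on the log2 scale (SE 0.408; adjusted p by edgeR 0.00438). The size of this rise depended on the libraries and the scale: it was 3.34 without shNC 3, 2.21 without shNC 1 and 0.98 on log2(FPKM + 0.5), and it was called in each. On the FPKM scale NDST1, the most abundant of the family, was at 27.9 in the controls and 28.9 after knockdown, against 0.147 and 0.770 for NDST4. HS3ST3B1, a 3-O-sulfotransferase, fell by 0.54, a call lost without 4 of 6 single libraries (highest adjusted p by edgeR 0.117) and with the replicate block (0.0534). HS6ST1 and HS6ST3, which add the 6-O-sulfate that the SULF enzymes remove, were named for that role after their values were seen. They differed in opposite directions and neither was called. HS6ST1 differed by -0.22 (adjusted p by edgeR 0.132), from 8.72 to 7.39 FPKM. HS6ST3 differed by 0.50 (adjusted p by edgeR 0.0978), from 0.973 to 1.37 FPKM. The groups overlapped for both. HS6ST2 had too few reads to be tested. Of this list, 2 rose and 2 fell of 9 (median -0.08) without shNC 3.

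Supply of the sulfate donor had 0 rises and 2 falls among 7 genes (median -0.22). SLC26A2, a sulfate transporter of the cell membrane, fell by 0.33, and BPNT2, a Golgi phosphatase that clears a by-product of sulfation, fell by 0.25. With 1 library left out the adjusted p by edgeR reached 0.0880 for SLC26A2 and 0.0661 for BPNT2, and by limma-trend on FPKM SLC26A2 had 0.0519. Of this list, 0 rose and 3 fell of 7 (median -0.22) without shNC 3. Breakdown of heparan sulfate in the lysosome and by heparanase had 0 calls among 10 genes by edgeR and 0 by DESeq2 (median 0.03), with 1 at an unadjusted p below 0.05. Without shNC 3, 4 rose and 0 fell of 10 (median 0.09), in a fit that called 14.3% of all genes higher and 13.8% lower. GUSB, a lysosomal glucuronidase and among its abundant members, differed by 0.11 (adjusted p by edgeR 0.258). HPSE2, a heparanase relative named after its values were seen, read 5.01, 4.54 and 13.3 CPM in controls 1, 2 and 3, where shNC 3 was near the 12.1, 15.04 and 13.7 CPM of knockdown libraries 1, 2 and 3.

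Among 9 tested genes for other sulfatases and for sulfatase activation, 1 rose and 1 fell (median -0.01). STS, steroid sulfatase, which releases oestrone from its sulfate, read 59.2, 60.4 and 72.2 CPM in controls 1, 2 and 3 and 160.05, 162 and 156 CPM in knockdown libraries 1, 2 and 3, a rise of 1.32 (95% interval 1.15 to 1.48; adjusted p by edgeR 2.85e-05). SUMF1, which makes the formylglycine that human sulfatases need for activity, the SULF enzymes included, read 107, 107 and 110.5 CPM in controls 1, 2 and 3 and 78.2, 77.03 and 77.5 CPM in knockdown libraries 1, 2 and 3, a fall, with a log2 value of -0.48 (95% interval -0.58 to -0.37; adjusted p by edgeR 3.87e-04). Its paralogue SUMF2 was at 334 ± 4.46 and 340.3 ± 6.82 CPM. STS and SUMF1 were called with each library left out, and the groups did not overlap for either. Of this list, 1 rose and 2 fell of 9 (median -0.05) without shNC 3.

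Other carriers of heparan sulfate had 0 rises and 1 fall among 8 tested (median -0.46). The fall was TGFBR3, a coreceptor for TGF beta known as betaglycan, at 0.457 FPKM in the controls and 0.203 FPKM after knockdown. It fell by 1.14, a call lost with 5 of the 6 single libraries left out (highest adjusted p by edgeR 0.164). It was also not called by limma-voom (adjusted p 0.0728), with the replicate block (0.0541) or on log2(FPKM + 0.5), where it was at -0.43 (0.0999). DESeq2 called 2 of the 8. Without shNC 3, 0 rose and 4 fell of 8 (median -0.60). Partners and shedders of the core proteins had 0 calls among 10 by edgeR and 0 by DESeq2 (median 0.0048), with 2 at an unadjusted p below 0.05. Without shNC 3, 3 rose and 0 fell of 10 (median 0.02). SDCBP, or syntenin, which binds the tails of syndecans, differed by 0.15, and DAG1, dystroglycan, to which agrin binds, by -0.0017.

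FGF ligands and receptors had 0 calls among 8 tested by edgeR and 0 by DESeq2 (median -0.12), with 3 at an unadjusted p below 0.05. Without shNC 3, 1 rose and 2 fell of 8 (median -0.05). FGFR2 and FGFR3, which had the highest mean FPKM over the 6 libraries, differed by 0.01 and -0.19. Of 11 other heparin-binding ligands 1 rose and 2 fell (median -0.33), and DESeq2 called 5. Without shNC 3, 2 rose and 6 fell of 12 (median -0.62). The chemokine CXCL12 rose by 0.25, the chemokine CCL2 fell by 2.01 and HBEGF, a ligand of the EGF receptor, fell by 0.79. HBEGF lost its call without 5 of 6 single libraries (highest adjusted p by edgeR 0.0919) and CXCL12 had 0.0634 without shCUEDC1 1. Chondroitin and dermatan sulfate synthesis, which shares the linker, had 0 rises and 1 fall among 15: CHST3, a chondroitin sulfotransferase, fell by 0.95, from 0.853 to 0.413 FPKM. On log2(FPKM + 0.5) CHST3 was at -0.57 and was called. Of this list, 0 rose and 3 fell of 15 (median -0.17) without shNC 3.

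**Figure D4:**
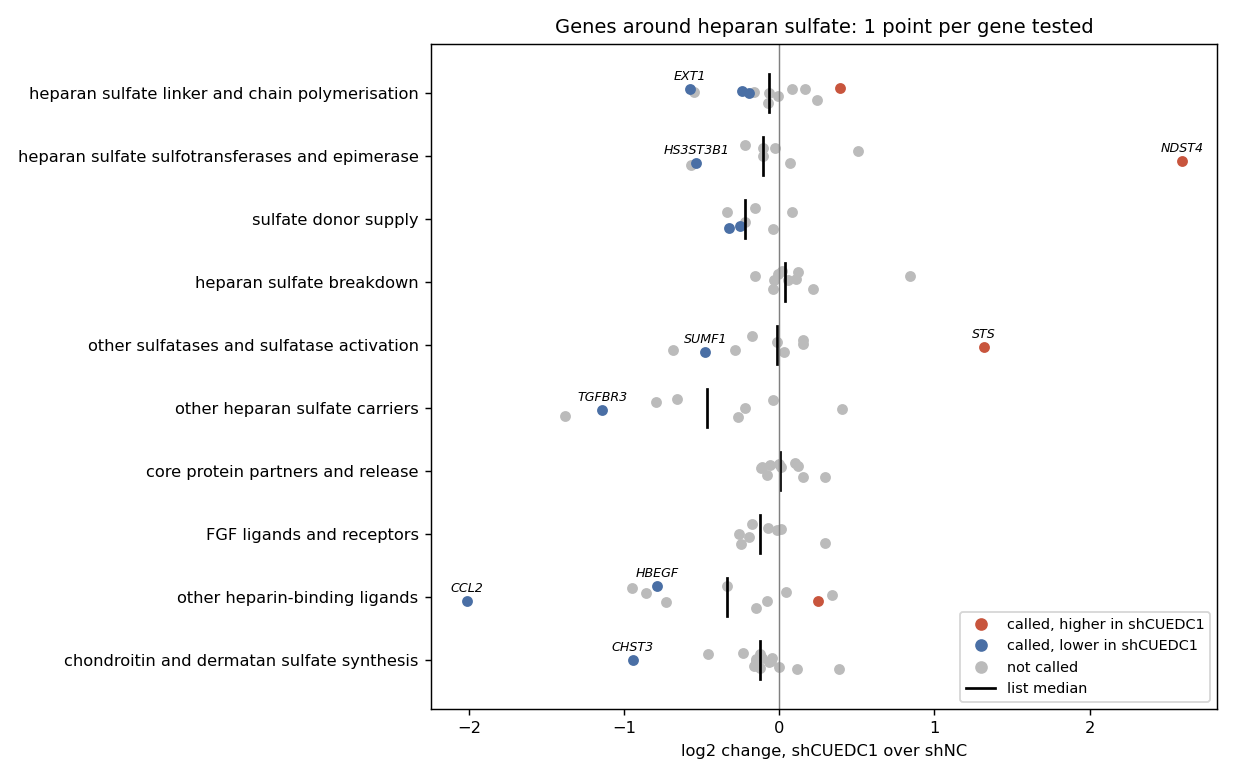
Log2 change, shCUEDC1 over shNC (horizontal axis), of the 99 tested genes of the 10 companion lists, 1 point per gene; red and blue points were called higher and lower, black bars are list medians, and called genes beyond 0.45 in size are named. NDST4 and STS lie farthest to the right and CCL2 farthest to the left.

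The 5 genes with the profile nearest to that of SULF2 were CUEDC1, SPRR2A, CAVIN1, BPIFB1 and CD36, at distances of 0.354 to 0.367. Distance is the root mean square of the log2 CPM difference over the 6 libraries after centring on shNC, among 12000 genes that were tested and reached 1 FPKM. All 5, like SULF2, were lowest among the controls in shNC 3, which is part of the profile that was matched. CAVIN1, a coat protein of caveolae, read 22.6, 24.2 and 8.92 CPM in controls 1, 2 and 3. In knockdown libraries 1, 2 and 3 it read 5.46, 6.34 and 5.29 CPM. SPRR2A has near-identical relatives, and its reads may be split among them. Without shNC 3 the nearest 5 held 3 of these genes, and on log2(FPKM + 0.5) they held 0. CUEDC1 was not among the nearest 5 in either of these settings. The set thus depends on shNC 3 and on the scale. As SULF2 was chosen by its fall, the genes nearest to it are bound to be ones that fell.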

How the data were processed

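RNA was measured in 6 libraries of T47D cells after poly(A) selection and random-primed cDNA synthesis, per the labels' protocols. The submitters' processing notes name GRCh38 patch p13. The aligner and counter, and whether strand was used, were each not given in the sources used here. For each library the authors deposited estimated counts (fractional, not normalised), FPKM, TPM and a signal column of counts divided by 1 size factor per library, per the file headers. TPM, the signal column and the authors' group means were not used.

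Estimated counts were rounded, filtered with filterByExpr (minimum count 10), scaled by TMM and compared with edgeR 4.0.16 (quasi-likelihood, robust) in R 4.3.3 over all genes, with Benjamini-Hochberg adjustment. Each SE is the log2 change divided by the square root of F. Alternatives used limma 3.58.1 and DESeq2 1.42.0. The members and lists were chosen with earlier results of these data known. Named genes were the members, CUEDC1, up to 4 called genes per list with the smallest p or otherwise the 2 most abundant, and the 5 nearest to SULF2; 1 gene under this rule is not reported here. NCOA3 (overlap), NDST1, SUMF2, COL1A1, LUM, HS6ST3, GPC2, GPC3 and GPC5 were added after their values were seen. So were the changes of the other fibroblast markers and the levels of the other basal markers. On counts simulated for shCUEDC1 against shNC, 13704 genes were tested, and edgeR recovered 69% of 100 genes changed 1.5-fold and 87% of 100 changed 2-fold; 7.69% of its 169 calls were unchanged genes.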

Additional observations from a re-analysis of the deposited data

How the results depend on the processing

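SDC2 and GPC6 were called in all 13 alternative fits, so the number of members that rose stayed at 2. DESeq2 called 1 fall (SULF1). Leaving out 1 library gave 2 to 6 called members, with 0 to 4 falls. The companion lists then gave 7 to 40 called genes, 3 to 14 higher and 4 to 26 lower, and all genes gave 468 to 3925, 272 to 1996 higher and 196 to 1929 lower; the highest numbers of called genes are without shNC 3, and the cause was not tested. Values near 0 changed sign. AGRN was at 0.000435 by limma-voom and 0.000229 with the replicate block. With 1 library left out AGRN ranged from -0.12 to 0.081, SDC3 from -0.10 to 0.035, SDC4 from -0.0045 to 0.061 and GPC4 from -0.0013 to 0.19; of these only AGRN was called, at -0.12 without shNC 3. The genes nearest to SULF2 shared 3 of 5 without shNC 3 and 0 of 5 on log2(FPKM + 0.5).

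With the replicate number as a block, 1117 genes were called in place of 1377, 2 members rose and 0 fell, and 7 companion genes fell in place of 11. Same-numbered libraries did not deviate together (correlations -0.03, -0.08 and -0.04). With 3 libraries per group, this cannot show whether libraries of the same number were prepared together. At 18 to 27 reads per knockdown library, counting error limits how precisely the size of the SULF2 difference is known.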

Other observations

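The nearest tested gene without overlap on each side of every member was examined after the members' values had been seen. Of these 20 neighbours, 2 rose and 0 fell (edgeR), beside 9.96% of all genes called. NCOA3, which overlaps SULF2 and rose (adjusted p by edgeR 0.0171), is not among the 20. CPQ, a secreted carboxypeptidase gene 33.4 kb from SDC2, rose by 0.64 on the log2 scale (SE 0.0622; adjusted p by edgeR 3.85e-04). PTDSS1, on the other side of SDC2, differed by -0.05 (adjusted p by edgeR 0.627). SLPI, a protease inhibitor gene 70.7 kb from SDC4, rose by 0.29 (adjusted p by edgeR 0.0286). The neighbours of GPC6, SLITRK5 and TGDS, differed by 0.45 and 0.004 and were not called (adjusted p by edgeR 0.128 and 0.985).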
